A study of Mus musculus with 6 samples.

Results

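Dendritic cells are the antigen-presenting cells that best activate naive T cells, and they carry CD80 and CD86, the proteins that CTLA4-Ig binds. The genes described here are 10 markers and transcription factors of the plasmacytoid and conventional dendritic cell types: Siglech, Tcf4, Ccr9, Zbtb46, Xcr1, Clec9a, Cd209a, Irf4, Batf3 and Id2. They were taken by name from the 23284 gene names of each library, and all 10 were found. The 9 whose average level reached 1 FPKM were tested, among 10865 such genes. FPKM is a count of sequenced fragments scaled to transcript length and to library size, so levels of different genes can be set side by side.

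The RNA came from sorted EGFP-positive cells of the calvaria (the flat skull bones) in CX3CR1-EGFP mice, which carry EGFP at the Cx3cr1 locus. All 6 libraries came after LPS, a bacterial outer membrane component, was given at the calvarial periosteum. In the CTLA4-Ig group (abatacept, the outer part of CTLA-4 joined to an antibody Fc part) the LPS came with 10 mg/kg of the drug, in the control group with 10 mg/kg of whole human IgG, and cells were taken 5 days later, with 3 libraries in each group. Age, sex and the number of reporter alleles were not stated. Titles call the libraries biological replicates but do not tie them to animals, so the p-values measure the spread between these libraries. EGFP marks every cell that uses the Cx3cr1 locus, so the sort could hold monocytes and osteoclast precursors as well as dendritic cells.

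Dendritic cells arise from a shared precursor along diverging routes. In plasmacytoid cells, known for the large amounts of type I interferon they release after sensing viral nucleic acids, the E protein TCF4 (E2-2) binds E-box sequences and sustains the lineage. In conventional cells, which take up antigen and show it to T cells, ID2 pairs with E proteins and keeps them from DNA. BATF3 with IRF8 is needed for the type 1 conventional cells that present antigen to CD8 T cells, and IRF4 works in the type 2 cells that stimulate CD4 T cells.

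The sequences just upstream of 3 members are shown as examples, because E-boxes are the sites that TCF4 and its partners bind. All 3 genes were lowest in the same control library (below), which held for 8 of the 10 members. Each is the 250 bases before the RefSeq start site (GRCm38.p6), written 5′ to 3′ on the gene's strand, with every E-box CANNTG in capitals. They lie at chr7:55767934-55768183 on the plus strand for Siglech, chr9:123766961-123767210 on the plus strand for Ccr9 and chr8:3748985-3749234 on the minus strand for Cd209a. The Siglech window ends at the start site of the promoter table, which lies inside the RefSeq gene span, so its last 30 bases, with the CACCTG E-box, are within that span.
Siglech: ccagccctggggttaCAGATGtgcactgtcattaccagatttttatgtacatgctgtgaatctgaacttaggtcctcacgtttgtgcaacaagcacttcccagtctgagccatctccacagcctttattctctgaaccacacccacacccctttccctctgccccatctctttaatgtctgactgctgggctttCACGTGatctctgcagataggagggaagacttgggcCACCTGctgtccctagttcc
Ccr9: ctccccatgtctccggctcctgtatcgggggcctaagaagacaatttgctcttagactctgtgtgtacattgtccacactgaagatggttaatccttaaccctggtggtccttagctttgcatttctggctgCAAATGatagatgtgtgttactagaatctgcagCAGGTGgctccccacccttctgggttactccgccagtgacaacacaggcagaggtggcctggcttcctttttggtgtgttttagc
Cd209a: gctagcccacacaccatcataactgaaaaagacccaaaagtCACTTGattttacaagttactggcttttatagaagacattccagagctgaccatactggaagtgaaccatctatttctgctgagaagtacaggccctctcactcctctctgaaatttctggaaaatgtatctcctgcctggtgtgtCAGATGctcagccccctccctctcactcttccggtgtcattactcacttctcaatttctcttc
Siglech holds 3 E-boxes in this window, and Ccr9 and Cd209a hold 2 each. Of other members lowest in that control library, Irf4 holds 0, Clec9a 1, Batf3 2 and Zbtb46 5. A link between E-boxes and that library was not tested. Of the 9 members with a RefSeq promoter entry, 8 hold at least 1 E-box, and so do 66.2% of all 32851 promoter windows of this length. The E-box form CAGGTG, a subset of CANNTG searched on both strands, is in Siglech, Ccr9 and Zbtb46, which is 3 of 9 members, against 17.2% of all windows. TGANTCA, the letters that AP-1 and BATF factors bind, is in 1 of 9 (Zbtb46), against 6.75% of all windows. All 250 bases of the Zbtb46 window lie inside the RefSeq gene span, so its CAGGTG and TGANTCA matches are within that span. These matches describe letters only.

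One control library stood apart for these genes. Control library 1 was the lowest of the 6 libraries for 8 of the 10 members and the highest for the other two, Id2 and Xcr1. Over all 10865 tested genes it was the lowest in 24.5% and the highest in 24.9%, the largest shares of any library for both. Its estimated depth was not unusual: the spacing of low values put the libraries at 8.48 to 10.2 M fragments (M, mega), with control library 1 at 8.51. The sum of the neutrophil markers, in contrast, separated the groups. In the CTLA4-Ig libraries the 15 of them made up 22.8 to 28.4% of all FPKM, in the controls 18.2 to 20.8%. The highest were S100a8 (54800 to 95500 FPKM) and S100a9 (48500 to 90800). One by one, 7 of 15 were without overlap, all higher with CTLA4-Ig, against 6.5% of all tested genes. In limma 0 were called, and the log2 difference was positive in 11 and negative for Elane, Mpo, Prtn3 and Ctsg. The part of neutrophils in the results below was not tested.

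The sorted cells carried transcripts of plasmacytoid genes, while genes listed for type 1 conventional cells ranged from under 1 FPKM to 319 FPKM (Cd24a). Siglech, a lectin receptor of mouse plasmacytoid cells (chromosome 7, 55768154 to 55779448, GRCm38.p6), had a mean of 23.7 FPKM over the 6 libraries. The 22 further genes of a plasmacytoid list all had a mean of at least 1 FPKM, as did 10865 of all 23284 names. Of the 22, Bst2, the antiviral tetherin, was at 63.2 to 124 and Ly6d at 30.2 to 108 FPKM. Use of these 22 genes by other cell types in the sort was not tested. Xcr1, the chemokine receptor that defines type 1 cells (chromosome 9, 123852315 to 123862029), had a mean of 0.701 FPKM. Cadm1 and Itgae, surface proteins of the same cells, stood at 0.506 to 0.826 and 0.107 to 0.419 FPKM. Other genes of that list, many of them used by further cell types, were higher: Wdfy4, needed for cross-presentation, was at 25.7 to 27.3 FPKM and Snx22 at 42.2 to 47.6, and 9 of the 14 listed averaged at least 1 FPKM. In bulk RNA, fewer cells of a type and less RNA per cell cannot be told apart.

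By mean level the members ran from Id2 over Siglech, Cd209a, Tcf4, Irf4, Batf3, Ccr9, Clec9a and Zbtb46 to Xcr1. Id2, at 94.7 to 221 FPKM, ranked 675 among all 23284 names, and Siglech ranked 3775. Id2 stood clear of Siglech in every library, and Siglech, whose lowest library was at 16.02 FPKM, was barely above the highest of Cd209a, at 16.01. Tcf4 and Irf4 did not overlap, with Tcf4 at 6.35 FPKM or more and Irf4 at 5.70 or less. The ranges of all other neighbours in this order overlapped. Id2 is also used by natural killer cells, innate lymphoid cells and many myeloid cells, so its level is not one of dendritic cells alone.

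**Figure D1:**
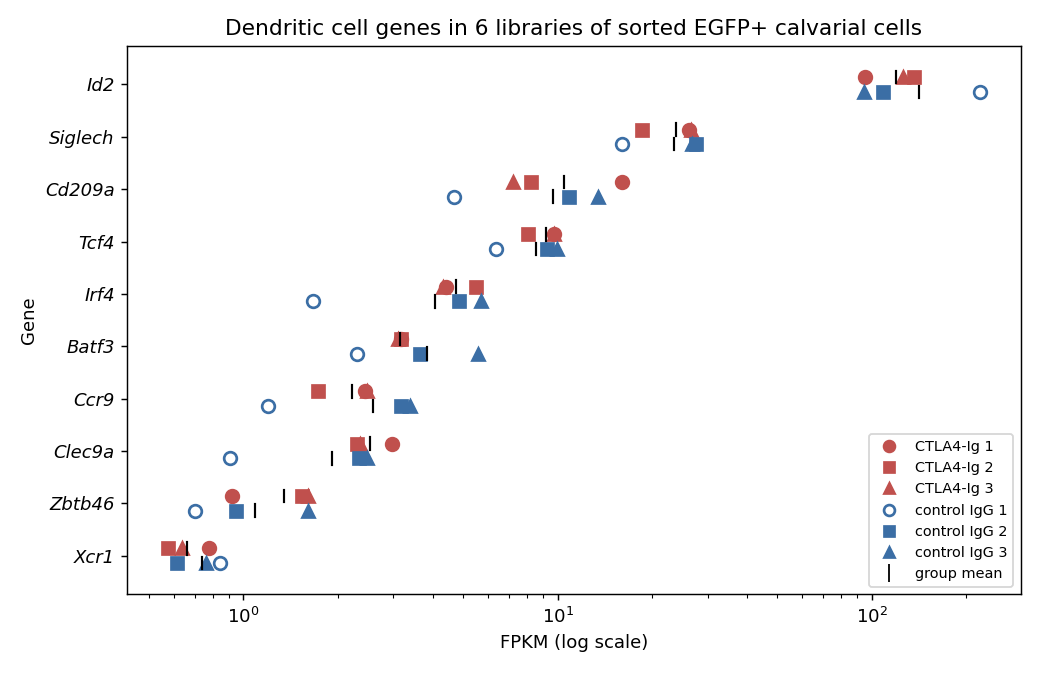
FPKM (log axis) of the 10 genes in each of the 6 libraries, CTLA4-Ig in red and control IgG in blue, with a black tick at the mean of each group. The open circle, control library 1, is the lowest point for 8 genes and the highest for Id2 (221 FPKM) and Xcr1 (0.841 FPKM).

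Setting CTLA4-Ig against control IgG asks whether the drug, whose ligands dendritic cells carry, went along with a change in these genes. None of the 9 tested members passed the test. On log2(FPKM + 1), limma with Benjamini-Hochberg adjustment over all genes called 0 of 9, as it called 0.0% of all genes, and at an unadjusted p under 0.05 there were also 0 of 9, against 6.07% of all genes (4.09% higher and 1.98% lower with CTLA4-Ig). The groups overlapped in all 10 members: 0 of 10 were without overlap, against 12.2% of all tested genes (6.5% higher and 5.69% lower with CTLA4-Ig). In limma the log2 difference was positive in 6 of 9 members with a median of 0.111, and over all genes it was positive in 47.7% with a median of -0.006. Without control library 1 it was positive in 3 of 9, with a median of -0.13, and over all genes the median was -0.009. Differences on the log2(FPKM + 1) scale understate those of low genes, and a p above the threshold does not show that the groups were alike.

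Of the plasmacytoid members, Siglech stood at 26.3, 18.6 and 26.7 FPKM in CTLA4-Ig libraries 1, 2 and 3 and at 16.02, 27.7 and 26.8 in control libraries 1, 2 and 3. So 1 library in each group lay well under the others, and the means were nearly the same, 23.8 ± 4.57 and 23.5 ± 6.49 FPKM (SD, n = 3). The log2 difference was 0.04 ± 0.23 (SE; limma, adjusted p = 0.9881), with a 95% interval from -0.507 to 0.587. It was -0.203 without control library 1, -0.036 without CTLA4-Ig library 1 and -0.047 without CTLA4-Ig library 3.

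Tcf4, the E protein described above (chromosome 18, 69343429 to 69687967), was at 9.73, 8.06 and 9.74 FPKM with CTLA4-Ig and at 6.35, 9.28 and 9.96 in the controls. It had the narrowest spread of the tested members, with the highest library 1.57 times the lowest, and the same pair of libraries was low. Between the groups the log2 difference was 0.11 ± 0.16 (SE; limma, adjusted p = 0.9392; 95% interval -0.274 to 0.496), and -0.065 without control library 1. Many other cells use Tcf4, B lineage cells among them.

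Ccr9, a receptor for the gut chemokine CCL25 that plasmacytoid cells and some T cells carry (chromosome 9, 123767211 to 123783457), was at 2.44, 1.73 and 2.48 FPKM with CTLA4-Ig and at 1.2, 3.17 and 3.40 in the controls. Control libraries 2 and 3 were above every CTLA4-Ig library and control library 1 was below every one. The log2 difference was -0.10 ± 0.28 (SE; limma, adjusted p = 0.9775; 95% interval -0.76 to 0.557). Without control library 1 it was -0.422 (limma, adjusted p = 0.5885), and it was positive, at 0.012, 0.039 and 0.078, without CTLA4-Ig library 2, control library 2 and control library 3. Exons of Ccr9 overlap those of Slc6a20a on the opposite strand, which had a mean of 0.0393 FPKM. They also overlap Gm17200 on the same strand and AC165425.1 on the opposite strand, neither of which is among the gene names of these libraries.

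The low libraries of the plasmacytoid members were also low for other genes of that cell type. Of the 22 listed plasmacytoid genes, control library 1 was the lowest of 6 in 17, against 24.5% of all tested genes. It was at 70% or less of the median of the other 5 libraries in 14, against 6.05% of all tested genes. Its median over the list was 61.3% of the others, where the median over all genes was 100%. Ly6d was at 30.2 FPKM there against 97.8 to 108 elsewhere. Cox6a2, a cytochrome oxidase subunit found in plasmacytoid cells, was at 6.05 against 16.7 to 27.3 FPKM. Spib, a transcription factor of the lineage, was at 5.17 against 10.4 to 14.3 FPKM. Klra17 and Tlr7 went the other way, at 15.1 and 24.9 FPKM, the highest of the 6. Within the CTLA4-Ig group, library 2 was the lowest of 3 in 14 of the 22 genes. That is 63.6%, against 32.9% of all tested genes. This was not limited to plasmacytoid genes, as the share was 66.7% for natural killer and innate lymphoid markers (4 of 6 tested). It was 44.4% for the members, 27.3% for the genes shared by conventional cells and 0 of 15 for the neutrophil markers.

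**Figure D2:**
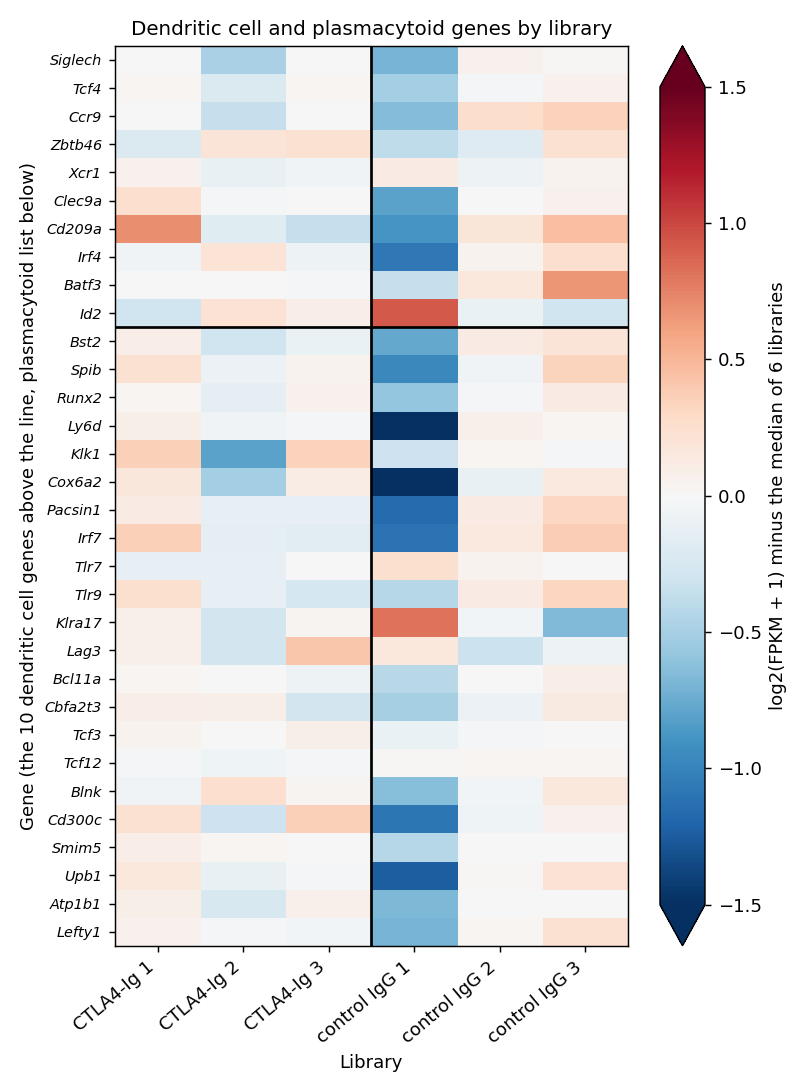
Each cell is log2(FPKM + 1) of a gene in a library minus that gene's median over the 6 libraries, for the 10 dendritic cell genes above the line and the 22 plasmacytoid genes below it; the colour scale ends at 1.5 in both directions. The column of control library 1 is blue in most rows and red for Id2 (221 FPKM) and Klra17 (15.1 FPKM), and its values for Ly6d and Cox6a2 lie beyond the lower end of the scale.

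No gene of the plasmacytoid list passed the test between the groups. In limma 0 of 22 genes were called after adjustment over all genes and 0 of 22 had an unadjusted p under 0.05, against 6.07% of all tested genes. Log2 differences were positive in 18 of 22 with a median of 0.147. Without control library 1 they were positive in 6 of 22 with a median of -0.06. In 1 gene the CTLA4-Ig libraries were all higher (Tcf3, an E protein that can pair with TCF4, 26.7 ± 0.776 against 25.1 ± 0.89 FPKM, SD, n = 3), and in 1 they were all lower (Tcf12, another E protein, at 13.1 to 13.6 against 13.9 to 14.1 FPKM). Over all tested genes 6.5% were all higher and 5.69% all lower. The smallest unadjusted p of the list was that of Tlr7, a sensor of single-stranded RNA, with a log2 difference of -0.18 ± 0.08 (SE; limma, adjusted p = 0.8484). The values were 0.09 ± 0.06 for Tcf3 (adjusted p = 0.8899 in limma) and 0.18 ± 0.12 for Smim5 (adjusted p = 0.8899 in limma). Without control library 1 they were -0.104 for Tlr7, 0.06 for Tcf3 and 0.04 for Smim5.

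Of the type 1 conventional members, Clec9a, a receptor for actin exposed on dead cells (chromosome 6, 129408862 to 129424764), was at 2.97, 2.29 and 2.34 FPKM with CTLA4-Ig and at 0.907, 2.33 and 2.48 in the controls. Apart from control library 1, all libraries lay between 2.29 and 2.97 FPKM. Clec9a had the largest log2 difference of the members, 0.33 ± 0.24 (SE; limma, adjusted p = 0.8988; 95% interval -0.251 to 0.906), and it was 0.049 without control library 1. Plasmacytoid cells of the mouse also use Clec9a. A transcript of its neighbour Clec1b, which had a mean of 0.862 FPKM, overlaps it on the same strand, so reads could be split between them.

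Batf3, the AP-1 family factor (chromosome 1, 191098414 to 191108943), was at 3.18, 3.17 and 3.11 FPKM with CTLA4-Ig and at 2.29, 3.64 and 5.60 in the controls. The CTLA4-Ig libraries were within 3.15 ± 0.0362 FPKM and the controls were spread on both sides of them, at 3.84 ± 1.66 (SD, n = 3). The log2 difference was -0.165 ± 0.24 (SE; limma, adjusted p = 0.9392; 95% interval -0.727 to 0.397), -0.415 without control library 1 and 0.087 without control library 3. With 1 annotated protein-coding transcript of 801 bases, these values rest on about 16 to 40 fragments per library.

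Xcr1 was at 0.778, 0.576 and 0.636 FPKM with CTLA4-Ig and at 0.841, 0.614 and 0.760 in the controls, under the filter of the test in both groups. Its 1 annotated transcript of 4453 bases gives about 22 to 32 fragments per library. It was the member in which control library 1 was highest apart from Id2, and the range of all 6 libraries was narrow, at 1.46 times from lowest to highest.

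Other type 1 genes were of mixed level. Of the 14 listed, 9 passed the filter, of which 0 were called in limma and 2 had an unadjusted p under 0.05, both positive, against 4.09% of all tested genes that were higher by this measure. The median log2 difference over the 9 was -0.02, with 3 positive. Ly75, the endocytic receptor DEC-205, was at 16.1, 21.2 and 17.3 FPKM with CTLA4-Ig and at 12.6, 13.1 and 12.3 in the controls. The groups did not overlap, and the log2 difference of Ly75 was 0.48 ± 0.10 (SE; limma, adjusted p = 0.7196). Cd24a, a glycoprotein of these cells that neutrophils also carry, was at 245, 319 and 292 FPKM against 207, 231 and 206, again without overlap (log2 difference 0.40 ± 0.11, SE; limma, adjusted p = 0.7196). The neutrophil markers in the same libraries had a median log2 difference of 0.502, with 7 of 15 at an unadjusted p under 0.05, and their part in Ly75 and Cd24a was not tested. Naaa, a lysosomal amidase, had -0.18 ± 0.14 (SE; limma, adjusted p = 0.9001). For Naaa it was -0.044 without CTLA4-Ig library 3, -0.082 without control library 1 and -0.289 without CTLA4-Ig library 1. Irf8, the partner of BATF3 that plasmacytoid cells and monocytes use too, was at 170 to 205 FPKM with CTLA4-Ig and at 127, 185 and 216 in the controls.

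Of the type 2 and monocyte-derived members, Cd209a, the mouse gene for a DC-SIGN lectin (chromosome 8, 3743395 to 3748984), was at 16.01, 8.25 and 7.24 FPKM with CTLA4-Ig and at 4.69, 10.9 and 13.4 in the controls. It was the most variable member on the log2 scale, with CTLA4-Ig library 1 the highest and control library 1 the lowest, so each group held high and low values. Between the groups the log2 difference was 0.14 ± 0.40 (SE; limma, adjusted p = 0.9775; 95% interval -0.825 to 1.096). It was -0.265 without control library 1 and -0.185 without CTLA4-Ig library 1. Its relatives Cd209b to Cd209g stood at no more than 3.52 FPKM each, and reads they share could be split between them.

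Irf4 (chromosome 13, 30749233 to 30766981) was at 4.41, 5.51 and 4.32 FPKM with CTLA4-Ig and at 1.67, 4.86 and 5.70 in the controls. Control library 1 was at 34.3% of the median of the other 5 libraries, the lowest share among the members. The log2 difference was 0.28 ± 0.33 (SE; limma, adjusted p = 0.9278; 95% interval -0.514 to 1.075), and -0.13 without control library 1. Plasma cells, activated lymphocytes and alternatively activated macrophages also use Irf4. The 8 listed B and plasma cell markers summed to 198 to 265 FPKM with CTLA4-Ig and 229 to 256 in the controls, and none was at 0 in all libraries.

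Among the 14 further genes listed for type 2 and monocyte-derived cells, 12 were tested and 0 were called in limma. An unadjusted p below 0.05 was found in 1 of 12, against 6.07% of all tested genes. The 1 gene was Itgam, the integrin chain CD11b that neutrophils and monocytes also carry, with a log2 difference of 0.21 ± 0.08 (SE; limma, adjusted p = 0.7865). Neutrophil markers had a median log2 difference of 0.502 in the same libraries, and their part in the Itgam value was not tested. The lectin genes Clec10a and Mgl2 were at 16.4 to 22.2 and 10.2 to 18.4 FPKM, each lowest in control library 1, and the log2 difference of Clec10a was 0.18 ± 0.10 (SE; limma, adjusted p = 0.8673), and 0.076 without that library. Fcgr1, an Fc receptor of monocyte-derived cells, had -0.26 ± 0.19 (SE; limma, adjusted p = 0.8972), which was -0.054 without CTLA4-Ig library 3 and -0.462 without CTLA4-Ig library 1. The list had 5 of 12 positive and a median of -0.02. Control library 1 was the lowest in 5 of the 12, against 24.5% of all tested genes. Its median was 94.5% of the other libraries, where it was 61.3% for the plasmacytoid list.

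Of the members shared by conventional cells, Zbtb46, a repressor that marks cells committed to the conventional lineage (chromosome 2, 181371009 to 181493262), was at 0.920, 1.54 and 1.61 FPKM with CTLA4-Ig and at 0.703, 0.949 and 1.61 in the controls. Low and high libraries were found in both groups. The difference on the log2 scale was 0.18 ± 0.21 (SE; limma, adjusted p = 0.926; 95% interval -0.316 to 0.683), and 0.048 without control library 1. Endothelial cells also use Zbtb46, and the stromal and endothelial markers, none of which was at 0 in all libraries, summed to 29.5 to 31.9 FPKM with CTLA4-Ig and 20.9 to 36.1 in the controls, lowest in control library 1. Pecam1, at 12.8 to 18.7 FPKM, was the largest single term of these sums. Cdh5 was at 2.31 to 3.68 FPKM and Kdr at 0.02 to 0.0997 FPKM. The part of stromal and endothelial cells in the Zbtb46 values was not tested.

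The 11 listed genes shared by conventional cells were all tested, and limma called 0 of them. An unadjusted p under 0.05 was found in 0, against 6.07% of all tested genes. Their median log2 difference was 0.158 with 9 positive, and -0.087 with 2 positive without control library 1. That library was the lowest in 10 of the 11, against 24.5% of all tested genes, and at a median of 57.4% of the others. Cd74, the invariant chain of MHC class II, was at 228 FPKM there, at 396 and 601 in control libraries 2 and 3 and at 409 to 442 with CTLA4-Ig. Itgax, the integrin chain CD11c, was at 3.82 FPKM against 6.74 to 8.29 in the other libraries (log2 difference between the groups 0.26 ± 0.24, SE; limma, adjusted p = 0.9038), and -0.019 without control library 1. Flt3, the receptor for the growth factor of dendritic cells and their progenitors, was the exception, at 46.6 FPKM in control library 1 against 15.8 to 24.2 elsewhere. Its log2 difference was -0.41 ± 0.35 (SE; limma, adjusted p = 0.9038), and 0.012 without that library. For Bcl6, a repressor used by conventional cells, it was 0.16 ± 0.10 (SE; limma, adjusted p = 0.8789), and 0.073 or 0.102 when CTLA4-Ig library 2 or control library 1 was left out.

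Id2 (chromosome 12, 25093799 to 25096092) was highest in control library 1, which it shared with Xcr1 alone among the members. It was at 94.9, 136 and 125 FPKM with CTLA4-Ig and at 221, 109 and 94.7 in the controls. Control library 1 was at 203% of the median of the other 5 libraries, and the other two controls were within or just under the range of the CTLA4-Ig libraries. The log2 difference was -0.16 ± 0.31 (SE; limma, adjusted p = 0.9583; 95% interval -0.911 to 0.584), and 0.208 without control library 1. Its relative Id1 was at 53.2 to 60.2 FPKM in all 6 libraries, and Id3 at 1.69 to 3.85.

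The level of Tcf4 relative to Id2, the pair whose balance separates the plasmacytoid and conventional routes, was 10.3, 5.92 and 7.76% with CTLA4-Ig and 2.88, 8.52 and 10.5% in the controls. The groups overlapped, with control library 1 lowest and CTLA4-Ig library 2 next. The level of Siglech relative to Zbtb46 was 28.6, 12.1 and 16.6 with CTLA4-Ig and 22.8, 29.1 and 16.6 in the controls. This second ratio put control library 1 within the range of the others, and both of its genes were low there. Natural killer and innate lymphoid cells are rich in Id2, and their 10 listed markers summed to 22.0 to 36.0 FPKM with CTLA4-Ig and 29.4 to 41.9 in the controls, at 29.4 in control library 1. None of them was at 0 in all libraries, and their part in the Id2 values was not tested.

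**Figure D3:**
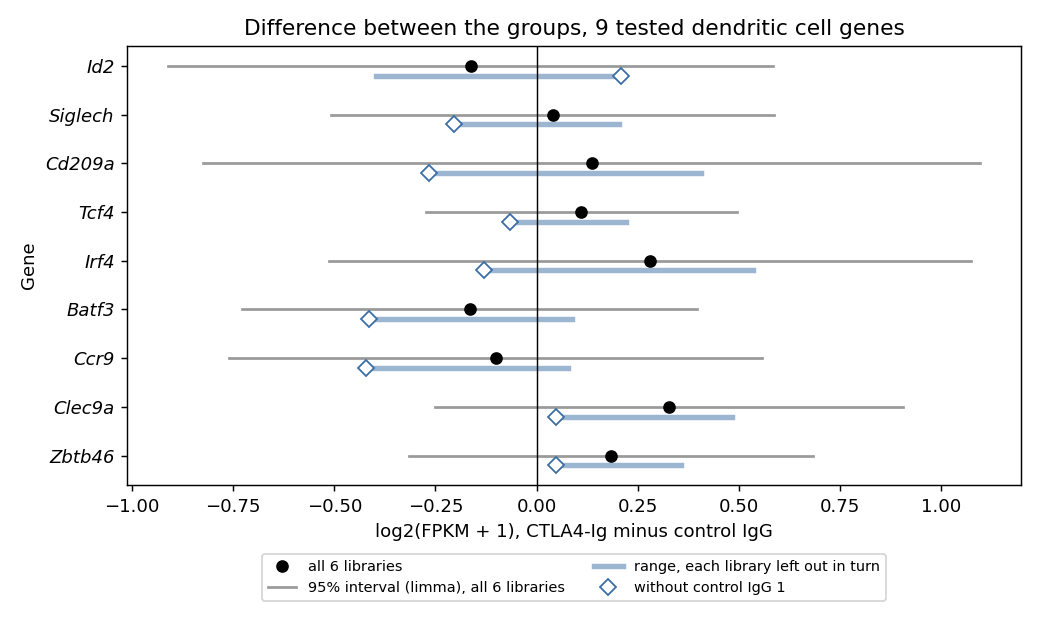
Difference in log2(FPKM + 1), CTLA4-Ig minus control IgG, for the 9 tested genes: black points with grey 95% intervals from limma for all 6 libraries, blue bars for the range when each library was left out in turn, open diamonds without control library 1. Every interval includes 0, and the diamonds of Siglech (-0.203), Tcf4, Cd209a, Irf4 and Id2 (0.208) lie across 0 from their black points.

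A pair of further lists bears on the members. Genes of mature, activated dendritic cells were low, and 5 of 11 passed the filter. Of these limma called 0, and 0 had an unadjusted p under 0.05, against 6.07% of all tested genes. The log2 difference was positive in 3 of 5, with a median of 0.063. Ccr7, the receptor that takes mature cells to lymph nodes, was at 0.739 to 0.903 FPKM with CTLA4-Ig and 0.238 to 0.855 in the controls, lowest in control library 1. Cd86 had a log2 difference of -0.12 ± 0.08 (SE; limma, adjusted p = 0.8899), which was -0.061 without CTLA4-Ig library 2. Cd80 had -0.22 ± 0.27 (SE; limma, adjusted p = 0.9279), and 0.075 without control library 1. Socs2 had 0.32 ± 0.23 (SE; limma, adjusted p = 0.8937), and 0.079 without control library 1. Of the BATF, IRF and ID partner genes 16 of 18 were tested and 0 were called in limma. An unadjusted p under 0.05 was found in 0 of the 16, against 6.07% of all tested genes. Their median was 0.087 with 11 of 16 positive. Batf, a relative of Batf3, was at a higher level than it, at 19.9 to 34.4 FPKM. Between the groups the log2 difference was 0.13 ± 0.08 for Irf1, -0.15 ± 0.10 for Irf5 and 0.09 ± 0.06 for Ikzf1 (SE; limma, adjusted p = 0.8899, 0.8935 and 0.8937). Leaving out 1 library took it to 0.058 for Irf1 (control library 1), to -0.09 and -0.256 for Irf5 (CTLA4-Ig libraries 2 and 1) and to 0.04 for Ikzf1 (control library 3).

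**Figure D4:**
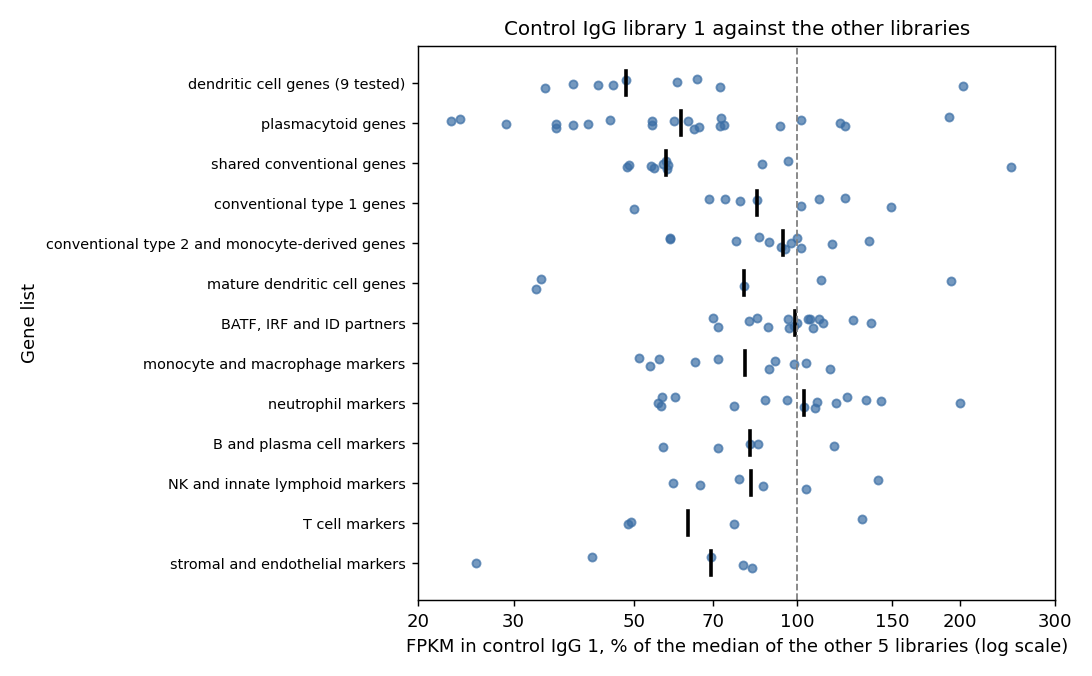
Level in control library 1 as a percentage of the median of the other 5 libraries (log axis), 1 point per tested gene and a black line at the median of each list. The medians of the dendritic cell genes (48.4%), the genes shared by conventional cells (57.4%) and the plasmacytoid genes (61.3%) are the lowest, T cell markers (63.1%) and stromal and endothelial markers (69.5%) come close to them, and the BATF, IRF and ID partners (99.3%) and neutrophil markers (103%) lie near 100%. Single neutrophil markers are spread from 55.5% (Ltf) to 200% (Mmp8). Of these 15, 4 are at 70% or less and 3 are highest in control library 1.

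Control library 1 was also lower for some markers of other cells. Its median level was 63.1% of the other libraries over 4 tested T cell markers and 69.5% over 5 stromal and endothelial markers, close to the 61.3% of the plasmacytoid genes. It was 80.2% over 10 monocyte and macrophage markers, 81.9% over 5 B and plasma cell markers and 82.4% over 6 natural killer and innate lymphoid markers. Cx3cr1, the reporter locus, was at 12.3 FPKM against 16.6 to 32.5 elsewhere. Csf1r, the receptor for M-CSF, was at 142 against 140 to 193 FPKM. The monocyte marker Ly6c2 was at 2335 against 2157 to 2304 FPKM, so in this library it stood at the top of the range. Of the 10 monocyte and macrophage markers, 5 were lowest in control library 1, against 24.5% of all tested genes. The highest value was there in 2, against 24.9%. At 70% or less of the median of the other 5 libraries were 4, against 6.05%. Ace was at 53.5% of that median, Nr4a1 at 55.7%, Treml4 at 64.8% and Lyz2 at 71.5%. T cell markers, of which 7 of 8 were matched and none was at 0 in all libraries, summed to 6.85 FPKM in control library 1, to 8.99 and 13.8 in the other two controls and to 8.46 to 12.7 with CTLA4-Ig. The part of these cells in the members' values was not tested.

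The genes whose profile over the 6 libraries was most like that of Siglech were Mef2c, a transcription factor of several blood lineages, Fyn, a Src family kinase, and Cyp2ab1, with a root mean square difference of 0.052, 0.062 and 0.066 on the centred log2 scale, among 1308 genes at least as variable as 0.8 times Siglech. Mef2c was at 9.08, 6.60 and 9.19 FPKM with CTLA4-Ig and at 5.08, 9.12 and 9.73 in the controls, so it shared both low libraries. For Cd209a they were Ak8, Irf7 and Mx1, at 0.166, 0.173 and 0.216 among 358 genes. Irf7 and Mx1 are genes that interferons induce, and Mx1 was at 3.38 FPKM in control library 1 against 6.99 to 11.7 elsewhere.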

How the data were processed

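The deposited values are FPKM per gene name and library, scaled between libraries by the authors. The tools named per the submitters' processing notes were Cuffnorm 2.2.1, SAMtools 0.1.19, Bowtie2 2.2.3 and TopHat2 2.0.13, with mm10 (GRCm38), and per the labels' protocols the library kit keeps strand. Annotation and use of strand in counting: not given in the sources used here. Groups came from the treatment label. limma 3.58.1 in R 4.3.3 (trended prior, no block) was fitted to log2(FPKM + 1) of all genes averaging at least 1 FPKM, with Benjamini-Hochberg adjustment over them and a threshold of 0.05. On simulated data for this comparison (10865 genes, 200 changed) 56% of genes changed by a log2 value of 0.5 were recovered. At a value of 1 it was 91%, and the count of false calls was 3. These shares are not those of the members, whose SE ran from 0.16 (Tcf4) to 0.40 (Cd209a). Recovery for the members alone was not tested. In the 6 libraries Mmp9 (log2 difference 1.04 ± 0.2, SE) and Ly75 (0.48 ± 0.1) were not called (limma, adjusted p = 0.7196 for each). Depth was estimated from the value of a single fragment in genes with 1 GENCODE M21 transcript longer than 800 bases, and fragment numbers from FPKM, transcript length and that depth. Of 150 listed genes 149 were matched, 5 by an older symbol in the RefSeq table. The members and lists were chosen with earlier results of these data known. The named genes were the members, the 3 genes of each related list with the smallest unadjusted p, and 3 genes of most like profile for Siglech and Cd209a. Other genes, the 70% limit, and the choice of control library 1 and CTLA4-Ig library 2, were named after values were seen. The alternatives were other pseudocounts (0.1, 0.5), filters (none, 5 FPKM), scalings, priors, weights, a replicate block, no small RNA names and leaving out each library. Python 3.11.15, pandas 2.3.3, numpy 2.4.6 and matplotlib 3.10.9 were used for tables and figures.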

Additional observations from a re-analysis of the deposited data

How the results depend on the processing

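None of the 9 tested members was called in any of the 18 alternatives in which it was tested, with adjusted p from 0.589 to 1.0 in limma. Of 157 member values under alternatives, 142 kept their direction and 15 reversed. With array weights the log2 difference of Siglech was -0.128, that of Cd209a -0.049 and that of Id2 0.046. Leaving out each library in turn gave ranges of -0.203 to 0.203 for Siglech, -0.065 to 0.222 for Tcf4, -0.422 to 0.078 for Ccr9, -0.265 to 0.406 for Cd209a, -0.13 to 0.534 for Irf4, -0.415 to 0.087 for Batf3 and -0.398 to 0.208 for Id2, and of -0.623 to 0.012 for Flt3, -0.019 to 0.454 for Itgax and -0.483 to 0.075 for Cd80. Over all genes limma called 0 with all libraries, 12 with no filter on low values and 0 to 6 with 1 library left out (2, 1 and 6 without CTLA4-Ig libraries 1, 2 and 3, and 0, 1 and 2 without control libraries 1, 2 and 3), none of them in any list used here. The genes called without the filter averaged at most 0.121 FPKM. Those called with 1 library left out were small RNA names at 0 in some library, apart from Gm9781. With the replicate block 0 genes were called and 619 had an unadjusted p under 0.05, against 659 without it. Same-numbered libraries did not deviate together (r = -0.154, -0.0942 and -0.0235 across genes). With 3 libraries in each group, these values cannot show whether the numbers pair them. Few fragments limit Xcr1 (about 22 to 32 per library), Batf3 (about 16 to 40), and Clec9a and Zbtb46 (each 3 to 87, depending on the transcript counted). By the same reckoning Irf4 stood at 5 to 240.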

Other observations

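Relatives of Siglech differed in which library was low. Siglecg, an inhibitory receptor of B lineage and dendritic cells, was at 14.2, 17.6 and 14.4 FPKM with CTLA4-Ig and at 7.66, 14.5 and 15.0 with control IgG, and so was lowest in control library 1, as Siglech was. Siglece, a receptor of neutrophils and other myeloid cells, was at 52.5, 62.5 and 47.1 FPKM with CTLA4-Ig and at 76.3, 41.4 and 35.9 with control IgG, and so was highest in that library. Siglec1, of resident macrophages, was at 0.527 to 1.06 FPKM, and Siglec15, of osteoclasts, was listed at 0 in all 6 libraries.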
